A study of Homo sapiens with 26 samples.

Results

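Unlabeled control libraries of 2 stable HEK293T lines were compared, 3 from the line carrying an APEX2 fusion named CD28 and 3 from the line carrying an APEX2 fusion named PDGFR. These 6 libraries were chosen by their titles out of 26 in the series, which otherwise holds the 6 labeled libraries of the same lines and 14 libraries of Lyn11 and Lck constructs. HEK293T cells derive from human embryonic kidney and express the large T antigen of SV40. Both fusions face the outside of the plasma membrane, per the series' design text. The promoter, the protein segments fused to APEX2 and whether each line was 1 clone or a pool are not given in the labels. The protocols in the labels list biotin-phenol, hydrogen peroxide, quenching and streptavidin pulldown alike for every sample, and they do not say which step the controls skipped. The values are therefore levels in these control libraries, which need not equal levels in whole-cell RNA. The design text calls the libraries biological replicates. Nothing further in the labels says how the cultures were separated, so the tests measure the spread between these libraries.

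CD28 is a costimulatory receptor of T cells that binds CD80 and CD86, and PDGFR names the receptor tyrosine kinases for platelet-derived growth factor. In cell-surface display vectors a signal peptide and a single membrane-spanning segment hold an enzyme such as APEX2 on the outer face of the cell. APEX2 is an engineered peroxidase that converts biotin-phenol into short-lived radicals, so a difference between 2 lines before labeling is background to any difference after it.

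Levels are log2 FPKM, read fragments divided by exon length and by library size. A gene was tested when its level was above 0 in at least 3 of the 6 control libraries. This held for 20086 of 25745 genes. Reads recovered from the values gave depths of 13.07, 11.08 and 11.49 M (1e6 reads) in the CD28 control libraries and 15.83, 11.25 and 12.5 M in the PDGFR control libraries. Among the controls, the second PDGFR library stood apart. It listed 3031 genes of the table at 0 reads, against 226 to 1541 in the CD28 libraries and 1120 and 1223 in the other PDGFR libraries, and its residual SD was 0.88 log2 units, against 0.45 to 0.62 in the CD28 controls and 0.67 and 0.68 in the other PDGFR controls. Pearson correlations across the tested genes, which are not independent replicates, were 0.833 to 0.915 within the CD28 line, 0.718 to 0.825 within the PDGFR line and 0.729 to 0.871 between them. Among the labeled libraries in the same fit, the second CD28 library also stood apart, with 3158 genes at 0 reads and a residual SD of 0.82. The other labeled libraries of both lines had 176 to 1358 genes at 0 reads and SDs of 0.55 to 0.62.

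Markers of HEK293T cells were present in both lines. LIN28B, NEFL, NEFM and PAX2, genes active in HEK293T cells, had reads in all 6 libraries, and the 5 HEK293T markers together had 3033 to 3369 reads in the CD28 controls and 3160 to 4538 in the PDGFR controls. Of 8 T cell markers 3 had values and the others were not analysed here. The 3 had 80 to 100 reads summed in the CD28 controls and 140 to 244 in the PDGFR controls, most of them from CD4 and CD8A. CD3E, part of the T cell receptor complex, had 4, 4 and 5 reads in the CD28 controls and 17, 6 and 26 in the PDGFR controls. For fibroblasts 5 markers summed to 664 to 1023 reads in the CD28 controls and 950 to 1698 in the PDGFR controls, mostly COL1A1, while LUM, which encodes a matrix proteoglycan, was at 0 in the PDGFR libraries numbered 2 and 3. The 2 epithelial carcinoma markers with values summed to 76 to 91 reads in the CD28 controls and 26 to 174 in the PDGFR controls. HBA1, the only red cell marker with values, had 1 to 4 reads in the CD28 controls and 4 to 14 in the PDGFR controls. The part of these markers in the results below was not tested.

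One gene passed the test, and it was the gene that gives the first line its name. CD28 (ENSG00000178562.17, hg38 chromosome 2, 203706475 to 203738912, plus strand, protein-coding) had log2 FPKM values of 5.32, 4.93 and 5.83 in the CD28 control libraries and -6.56 in each of the 3 PDGFR control libraries. In reads these were 2690, 1857 and 3450 in the CD28 controls, against 0, 0 and 0 in the PDGFR controls. The groups did not overlap, and the lowest CD28 library lay far above every PDGFR library. Over the group sums, 7997 reads against a floor of 3 reads made CD28 at least 3155.3-fold higher in the CD28 controls after scaling to depth. The floor covers counting error only. The fitted difference was 11.93 ± 0.50 log2 units (SE, 95% interval 10.83 to 13.03, limma adjusted p = 3.16e-06), and it depends on the prior count, near 1 read, that the deposited values carry at 0 reads. In bulk libraries, more expressing cells and more RNA per cell cannot be told apart.

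The same gene had 3591, 1989 and 3173 reads in the labeled CD28 libraries and 0 in each labeled PDGFR library, a difference of 11.90 ± 0.50 log2 units. Across the 20 libraries of the PDGFR, Lyn11 and Lck constructs it had at most 1 read. Reads from the fusion and from the chromosomal gene are counted together and cannot be told apart. The call was made in 18 of the 19 alternatives in which the gene was tested. It was lost with limma voom on the recovered reads, where the difference was 12.57 and the adjusted p was 0.172.

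The genes for the PDGF receptors had no difference of that size in the controls. PDGFRB, the beta receptor, had 12, 8 and 6 reads in the CD28 controls and 51, 9 and 58 in the PDGFR controls, and 16, 2 and 25 reads in the labeled CD28 libraries against 54, 58 and 42 in the labeled PDGFR libraries. Its control groups overlapped through the second PDGFR library, and its labeled groups did not overlap. In log2 FPKM, PDGFRB was -2.95, -3.36 and -3.73 in the CD28 controls and -1.28, -3.33 and -0.80 in the PDGFR controls. It was -2.62, -5.2 and -2.02 in the labeled CD28 libraries and -0.94, -0.84 and -1.25 in the labeled PDGFR libraries. The 7 Lyn11 and Lck controls ran from -3.65 to -2.08 for PDGFRB. PDGFRA, the alpha receptor, had 44, 52 and 41 reads in the CD28 controls and 23, 9 and 44 in the PDGFR controls, which overlap. In the labeled libraries PDGFRA had 44, 23 and 36 reads in the CD28 line and 11, 15 and 16 in the PDGFR line. These labeled groups did not overlap, and the CD28 line was the higher one, the opposite of PDGFRB. Both genes lay below the level needed for testing. The labels do not say which segment of which receptor the fusion holds. Whether the construct adds to the reads over either gene was not tested. Among ligands and other receptor kinases 18 genes were tested and none was called. Of these, 1 had all CD28 controls above all PDGFR controls and 3 had them below, while over all 20086 genes tested 8.42% had them above and 5.72% below. RET, the receptor of GDNF family ligands, was 1.18, 1.06 and 0.73 in the CD28 controls and 1.87, 1.27 and 1.77 in the PDGFR controls, with a difference of -0.65 ± 0.27 (limma adjusted p = 0.59).

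**Figure D1:**
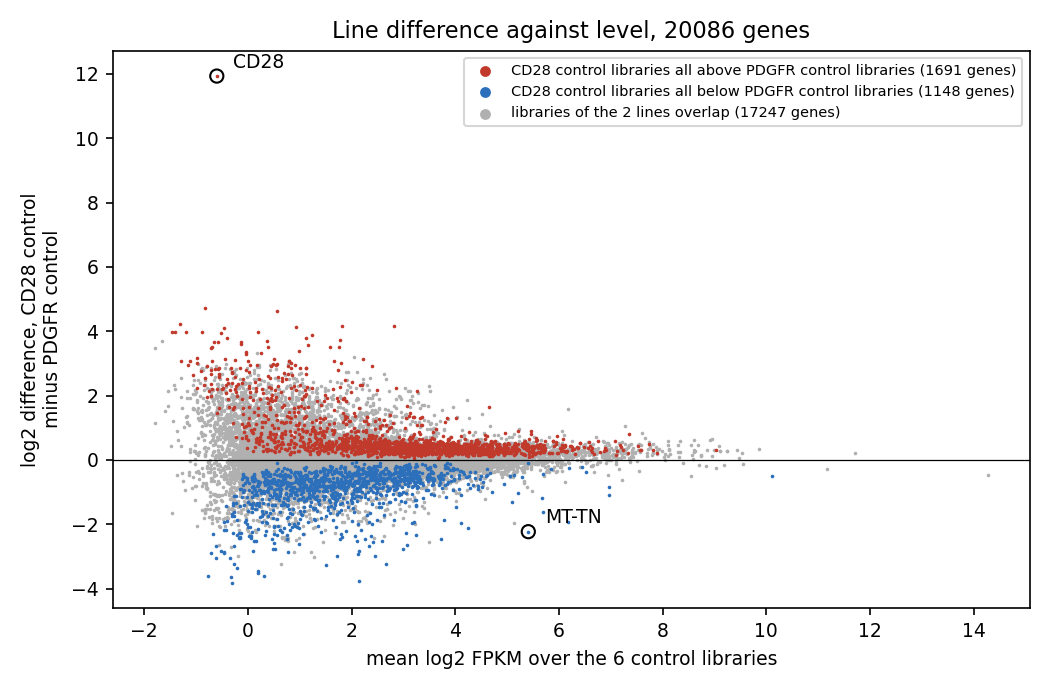
The log2 difference of CD28 control minus PDGFR control (vertical) is plotted against the mean log2 FPKM of the 6 control libraries (horizontal), 1 point for each of 20086 genes, coloured by whether the 3 libraries of each line overlap. CD28 stands alone at 11.93, and the spread of the other genes narrows as the level rises.

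Apart from CD28 no gene was called, in either direction, so limma called 1 of 20086 genes or 0.00498%, and limma voom called 0. The next smallest limma adjusted p was 0.139, for an snRNA gene of the U1 family named RF00003 (ENSG00000273768.1, chromosome 1, 146376807 to 146376970). This gene was singled out after its values were seen. It had log2 FPKM values of 4.37, 4.85 and 3.77 in the CD28 controls and 2.16, 2.38 and 2.05 in the PDGFR controls, a difference of 2.13 ± 0.28. Its groups overlapped in the labeled libraries, where the difference was 0.36 ± 0.28. U1 genes have near-identical copies, among which the authors' counting could have divided the reads.

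How large a difference the libraries could have missed depended on the level. The median SE was 0.31 log2 units, and it was 1.16 for genes with a mean log2 FPKM under 0. The 95% interval of the line difference lay within 1 log2 unit of 0 for 10482 genes (52.2%) and within 2 units for 15451 (76.9%). Among the 6613 genes with a mean of at least 3 it lay within 1 unit for 5638 (85.3%). For those 10482 genes a difference of more than 2-fold between the lines lay outside the interval, and for the other genes tested it did not.

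Without adjustment, 1066 genes (5.31%) were higher in the CD28 controls and 558 (2.78%) were lower at a limma p under 0.05. The 3 libraries of each line did not overlap in 1691 genes with CD28 higher (8.42%) and in 1148 with CD28 lower (5.72%). The labeled libraries of the same lines are separate samples, and they gave values for the same genes. Of the 1691 genes, 80.7% had a positive difference there, against 52.2% of all genes tested, and 50.1% were again higher without overlap, against 17.6% of all. Of the 1148 genes, 80.7% had a negative difference there, against 47.2% of all, and 28.4% were again lower without overlap, against 9.27% of all. The shares over all genes are not matched for level or GC content. Of the 1818 genes with a mean log2 FPKM of 4 to 5, 710 were higher without overlap in the labeled libraries. In 5 equal bins of protein-coding genes by GC content, 1082 of 2436 genes in bin 2 were higher there and 509 of 2434 in the highest bin were lower. Spearman's rho between both differences was 0.282 across all 20086 genes and 0.597 across the 5699 protein-coding genes with a mean of at least 3; these genes share their libraries, so rho is a description. No gene was called for a change of the line difference with labeling by limma, with 775 genes (3.86%) at an unadjusted p under 0.05, and limma voom called 0, with 811 genes at that p.

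The protein-coding genes with the smallest unadjusted p were taken next, 5 in each direction with a mean log2 FPKM of at least 1 and no overlap between the lines. None passed the adjustment. CXCL17 encodes a chemokine-like protein of mucosal tissues (chromosome 19, 42428288 to 42443048). It had log2 FPKM values of 2.73, 2.55 and 2.34 in the CD28 controls and 3.64, 4.20 and 4.02 in the PDGFR controls, a difference of -1.41 ± 0.21 (limma adjusted p = 0.200). In the labeled libraries the groups again did not overlap, at 2.28, 2.0 and 2.63 in the CD28 line and 3.53, 3.10 and 3.54 in the PDGFR line. In the 7 Lyn11 and Lck control libraries, which were sequenced more deeply, CXCL17 ran from 1.75 to 3.67.

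ASNS, asparagine synthetase, which the amino acid response induces, was 0.82, 1.47 and 1.02 in the CD28 controls and 2.17, 2.44 and 2.31 in the PDGFR controls. Its difference was -1.20 ± 0.24 (limma adjusted p = 0.366), with 108, 153 and 111 reads in the CD28 controls and 354, 330 and 316 in the PDGFR controls. In the labeled libraries the groups overlapped, at 1.03, 1.54 and 1.59 in the CD28 line and 1.60, 1.55 and 1.65 in the PDGFR line. The Lyn11 and Lck controls ran from 2.32 to 3.31 for ASNS, above every CD28 control, while the PDGFR controls lay within or close to that range. EVA1B, a gene for a membrane protein, was 1.48, 0.88 and 0.24 in the CD28 controls and 2.55, 2.66 and 2.46 in the PDGFR controls. Its difference was -1.69 ± 0.33 in the controls and 0.01 in the labeled libraries, but the test of that change gave a limma adjusted p of 0.94. EVA1B overlaps SH3D21 on the opposite strand.

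MELTF, which encodes the iron-binding melanotransferrin of the cell surface, and ZSWIM9, a zinc finger gene, completed the lower side. MELTF was 2.75, 1.89 and 2.16 in the CD28 controls and 3.29, 3.33 and 3.39 in the PDGFR controls, and ZSWIM9 was 2.01, 1.82 and 1.77 in the CD28 controls and 2.69, 2.50 and 2.69 in the PDGFR controls. Both were again lower without overlap in the labeled CD28 libraries, by differences of -0.84 and -0.71. Each overlaps an antisense or opposite-strand gene, MELTF-AS1 and CARD8, whose reads cannot be told apart without strand.

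On the higher side, SLC25A43, a member of the mitochondrial carrier family, was 1.87, 1.94 and 2.02 in the CD28 controls and 0.90, 0.73 and 0.46 in the PDGFR controls. Its difference was 1.25 ± 0.23 (limma adjusted p = 0.331), and 0.67 in the labeled libraries, again without overlap. RGS2, which speeds the GTPase activity of G protein alpha subunits, was 1.87, 2.16 and 1.90 in the CD28 controls and 0.67, 0.00 and 0.36 in the PDGFR controls, a difference of 1.63 ± 0.32 (limma adjusted p = 0.366). Its labeled libraries overlapped, with a difference of 0.20. The Lyn11 and Lck controls ran from 1.63 to 2.25 for RGS2 and from 1.95 to 2.37 for SLC25A43, so the CD28 controls lay within or close to their range for both genes and the PDGFR controls lay below it.

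POP1, a protein subunit of RNase P and RNase MRP, was 4.17, 4.04 and 4.19 in the CD28 controls and 3.75, 3.57 and 3.55 in the PDGFR controls. SLAIN1, which binds microtubule plus ends, was 3.32, 3.22 and 3.30 in the CD28 controls and 2.84, 2.74 and 2.68 in the PDGFR controls, and PDZD11, a small PDZ domain protein, was 3.80, 3.72 and 4.12 in the CD28 controls and 2.66, 2.65 and 3.05 in the PDGFR controls. The differences of POP1, SLAIN1 and PDZD11 were 0.51, 0.53 and 1.09 in the controls, and 0.48, 0.41 and 0.86 in the labeled libraries, where all 3 were again without overlap. The Lyn11 and Lck controls ran from 3.26 to 3.86 for POP1, which held the PDGFR controls and lay below the CD28 controls. They ran from 3.24 to 4.18 for SLAIN1 and from 3.59 to 4.46 for PDZD11. For SLAIN1 and PDZD11 the CD28 controls lay within or close to that range and the PDGFR controls below it. PDZD11 overlaps KIF4A on the opposite strand.

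**Figure D2:**
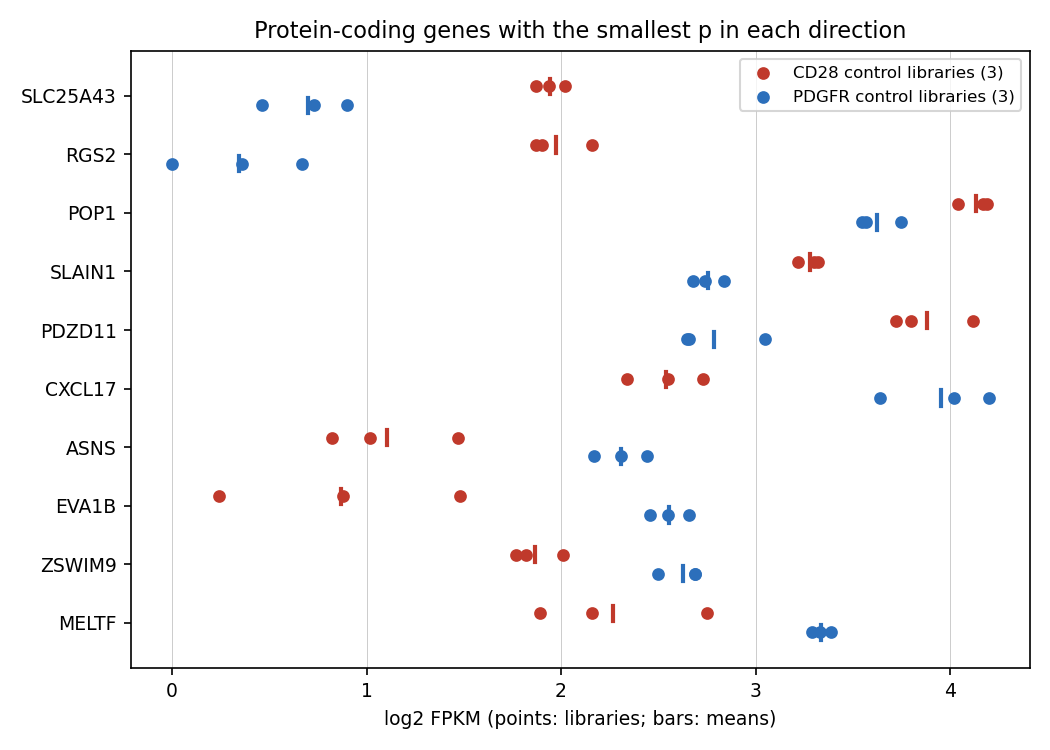
Log2 FPKM (horizontal) of the 10 protein-coding genes with the smallest unadjusted p, 5 higher and 5 lower in the CD28 controls; points are libraries, bars are means of 3, and CD28 controls are drawn above PDGFR controls. The lines do not overlap for any of the 10, which was a condition of their choice, and none passed the adjusted threshold.

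Mitochondrial tRNA genes had the lowest median difference among the annotated gene classes with at least 10 genes tested. The mitochondrial genome encodes the tRNAs that decode its own messages, and each tRNA reads a codon through its anticodon. Of the 13 such genes tested none was called. Without overlap, 0 were higher and 6 were lower in the CD28 controls, against 8.42% and 5.72% of all genes tested. The median difference was -0.88, against 0.06 over all genes. The class was one of several described, and its members are named here because their values stood out after they were seen. In the labeled libraries the median was -1.0 and 4 genes were lower without overlap. The control median was -1.0 without the second PDGFR control library and -0.68 after the trend with GC content was removed. The 3 genes with the smallest p are shown in hg38 with the anticodon in capitals, located as the single match preceded by T and followed by a purine, from GENCODE 29 transcripts. MT-TN, the tRNA for asparagine, lies at chrM:5657-5729 on the minus strand, MT-TS2, a tRNA for serine, at chrM:12207-12265 on the plus strand, and MT-TG, the tRNA for glycine, at chrM:9991-10058 on the plus strand.
MT-TN: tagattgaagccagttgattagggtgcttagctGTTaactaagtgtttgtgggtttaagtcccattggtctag
MT-TS2: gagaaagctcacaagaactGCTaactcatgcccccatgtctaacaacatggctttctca
MT-TG: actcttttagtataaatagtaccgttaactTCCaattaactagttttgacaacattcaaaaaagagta

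MT-TN had log2 FPKM values of 3.87, 4.44 and 4.58 in the CD28 controls and 5.76, 7.21 and 6.60 in the PDGFR controls, from 14, 19 and 21 reads against 69, 147 and 101. The difference was -2.23 ± 0.33 (limma adjusted p = 0.200) in the controls and -1.16 in the labeled libraries, without overlap in either. MT-TS2 was 5.41, 5.13 and 5.08 in the CD28 controls and 7.19, 7.44 and 6.82 in the PDGFR controls, a difference of -1.94 ± 0.32 (limma adjusted p = 0.208), and it was -0.92 in the labeled libraries. For both genes every CD28 control lay below every PDGFR control. MT-TG was 5.87, 3.78 and 4.98 in the CD28 controls and 6.54, 6.64 and 6.33 in the PDGFR controls, a difference of -1.63 ± 0.43 (limma adjusted p = 0.499). MT-TR, MT-TC and MT-TK were the other genes without overlap, with differences of -1.08, -1.19 and -0.78. Of the 13 genes tested, 3 had a control difference above 0. MT-TA was 1 of these, at 3.95, 4.84 and 4.96 in the CD28 controls and 3.80, -0.42 and 3.99 in the PDGFR controls, where the second library had 0 reads. Reads from the mature tRNA, from a longer precursor and from the other strand cannot be told apart, since the labels do not give the strand of the libraries.

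The mitochondrially encoded messages and rRNAs were described apart from the tRNAs. Of 15 tested, 0 were higher and 1 was lower without overlap, MT-ND5, a subunit of complex I, at -0.50, which was chosen after its values were seen. The median was 0.27 in the controls, 0.15 after the GC trend was removed and 0.03 after quantile normalization, and it was -0.26 in the labeled libraries. MT-RNR1 and MT-RNR2, the rRNAs of the mitochondrial ribosome, had differences of -0.81 and -0.87 in the controls and 0.91 and 0.78 in the labeled libraries, with overlap in each. MT-ND1, a subunit of complex I, was 8.08, 7.24 and 8.78 in the CD28 controls and 7.63, 6.81 and 7.14 in the PDGFR controls, which overlap. MT-CO2, a subunit of cytochrome c oxidase, also overlapped, at 8.74, 7.48 and 9.66 in the CD28 controls and 8.52, 7.57 and 8.06 in the PDGFR controls. Whether that median changed with labeling was not tested.

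**Figure D3:**
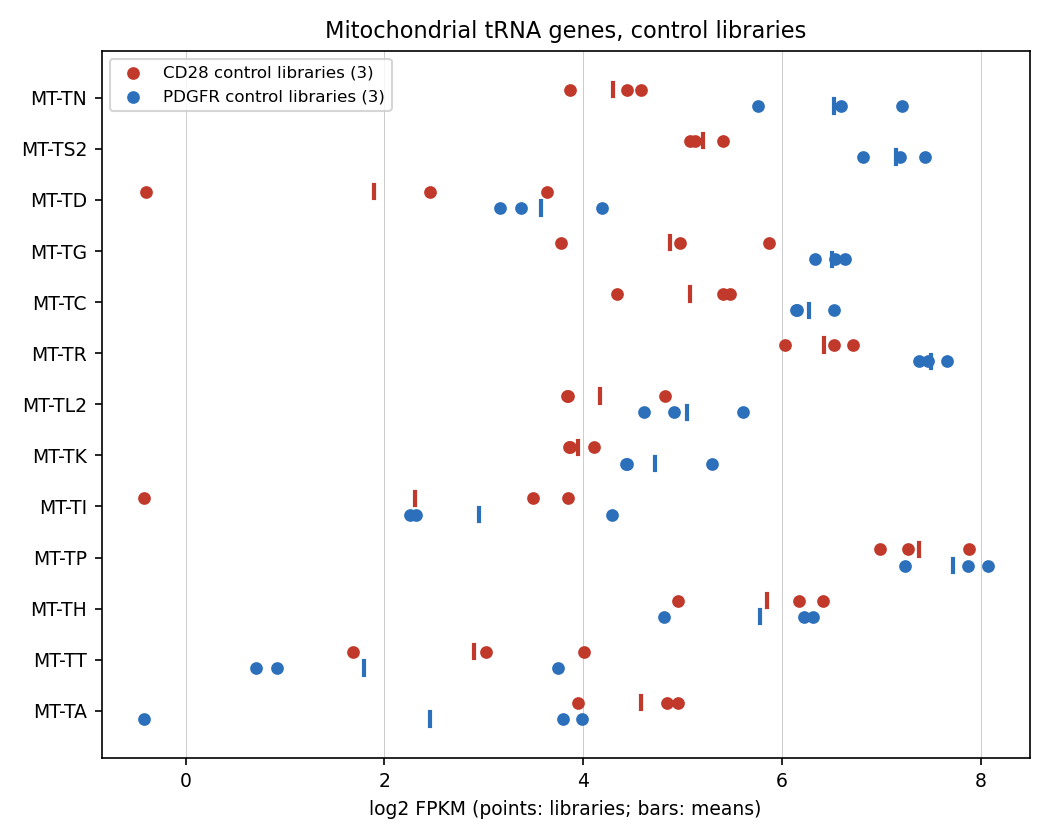
Log2 FPKM (horizontal) of the 13 mitochondrial tRNA genes tested, ordered by line difference; points are libraries, bars are means of 3, and CD28 controls are drawn above PDGFR controls. MT-TN, MT-TS2, MT-TG, MT-TC, MT-TR and MT-TK have all CD28 points left of all PDGFR points, and no gene has the reverse.

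Gene lists covered signalling, stress, cell cycle, metabolism, developmental and RNA classes, 37 in all with 835 distinct genes tested. None of these genes was called. Without overlap, 86 of them (10.3%) were higher and 47 (5.63%) were lower, against 8.42% and 5.72% of all genes, so the lists together lay near the background. Individual lists are described by counts and medians.

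Heat shock genes encode the chaperones and cochaperones that refold damaged proteins, under control of the factor HSF1. Of 16 tested, 9 were higher without overlap in the CD28 controls and none lower, while 15.9% of the 2863 genes with a mean log2 FPKM of at least 4 were higher without overlap. The median of the list was 4.97, 4.84 and 5.00 in the CD28 controls and 4.58, 4.43 and 4.38 in the PDGFR controls, so the 3 medians of each line did not overlap. The median of the differences was 0.35, against 0.06 over all genes, and it was 0.33 without the second PDGFR control library, 0.36 after the GC trend was removed and 0.22 after quantile normalization. In the labeled libraries it was 0.60, with 12 genes higher without overlap, while 710 of the 1818 genes with a mean of 4 to 5 were higher there without overlap.

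HSPA8, the constitutive HSC70 chaperone, had log2 FPKM values of 7.78, 7.47 and 8.04 in the CD28 controls and 7.08, 6.95 and 6.80 in the PDGFR controls, a difference of 0.82 ± 0.19 (limma adjusted p = 0.499). DNAJA1, one of its J-domain cochaperones, was 6.12, 6.12 and 6.32 in the CD28 controls and 5.69, 5.68 and 5.43 in the PDGFR controls, a difference of 0.58 ± 0.14 (limma adjusted p = 0.499). HSP90AA1, the inducible HSP90, was 7.76, 7.90 and 8.30 in the CD28 controls and 7.53, 7.56 and 7.35 in the PDGFR controls. None of these 3 overlapped, and the labeled differences of HSPA8, DNAJA1 and HSP90AA1 were 0.78, 0.91 and 0.94. HSPE1, HSPB1 and CHORDC1, chosen after their values were seen, overlapped, with differences of -0.15, 0.14 and -0.01. SNORD14C and SNORD14D lie within the annotated exons of HSPA8, and HSP90AA1 overlaps WDR20 on the opposite strand.

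The HSF1 site is built from inverted GAA cores. A motif of GAA, any 2 bases, TTC, any 2 bases and GAA was searched on both strands in RefSeq promoters (GRCh38.p14, from 250 bases before the start to 50 after it). It was present in a promoter of 6 of the 15 tested heat shock genes with a sequence, and in 166 of 27305 genes overall (0.61%). HSP90AA1 and HSPA8 are shown because they are among the genes of highest level in this list. The 250 bases before the start are given 5′ to 3′ on the minus strand, with motif matches in capitals, from chr14:102087045-102087294 and chr11:123062137-123062386. A match is a description and was not tied to any difference here.
HSP90AA1: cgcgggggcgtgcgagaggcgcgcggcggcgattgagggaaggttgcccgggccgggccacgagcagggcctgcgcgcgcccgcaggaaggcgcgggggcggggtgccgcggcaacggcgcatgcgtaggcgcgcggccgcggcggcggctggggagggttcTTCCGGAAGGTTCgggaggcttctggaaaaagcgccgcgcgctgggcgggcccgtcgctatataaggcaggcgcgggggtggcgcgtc
HSPA8: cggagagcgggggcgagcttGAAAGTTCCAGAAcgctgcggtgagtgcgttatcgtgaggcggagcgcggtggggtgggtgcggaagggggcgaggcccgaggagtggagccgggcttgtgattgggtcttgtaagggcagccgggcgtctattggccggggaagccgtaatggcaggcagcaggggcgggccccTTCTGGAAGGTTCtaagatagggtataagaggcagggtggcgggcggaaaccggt

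The integrated stress response raises ATF4 targets that make and import amino acids. Of 27 genes tested, 1 was higher and 5 were lower without overlap, against 8.42% and 5.72% of all genes tested. The median difference of the list was -0.12 in the controls and 0.03 in the labeled libraries. The control median was -0.25 without the second PDGFR control library and -0.20 after quantile normalization. Beside ASNS, DDIT4, an inhibitor of mTORC1, was 4.22, 4.22 and 3.63 in the CD28 controls and 5.14, 4.50 and 4.86 in the PDGFR controls, a difference of -0.81 ± 0.21 (limma adjusted p = 0.499). SLC7A11, the cystine transporter and a target of ATF4 and NRF2, was 2.63, 2.95 and 2.92 in the CD28 controls and 3.46, 3.87 and 3.49 in the PDGFR controls, a difference of -0.77 ± 0.18. Its labeled libraries overlapped, with a difference of -0.20. SLC7A11 was named from the separate list of NRF2 targets, whose median control difference was 0.06. Of the 18 NRF2 targets tested, 12 were above 0 and 6 below, with 0 higher and 1 lower without overlap. CHAC1, which degrades glutathione, overlapped because of the second PDGFR library, at 1.41, 1.66 and 1.49 in the CD28 controls and 3.08, 1.18 and 3.17 in the PDGFR controls. ATF5 went the other way without overlap, at 0.71, 0.43 and 0.73 in the CD28 controls and 0.42, -3.1 and 0.29 in the PDGFR controls. Its difference of 1.42 ± 0.78 was the largest of the integrated stress response list, with 4 reads in the second PDGFR control library. Immediate early genes, which respond first to growth factors, had 1 higher and 5 lower without overlap of 25 tested and a median of -0.14. That median was -0.22 without the second PDGFR control library and -0.02 after the GC trend was removed, and it was 0.07 in the labeled libraries. Of the immediate early genes, 8 had a control difference above 0 and 17 below. ATF3 was 3.20, 2.67 and 3.03 in the CD28 controls and 3.83, 3.28 and 3.72 in the PDGFR controls, with a labeled difference of -0.03. DUSP2 and FOSL1 had larger differences of the other sign, 2.42 ± 1.36 and 0.81 ± 0.73. DUSP2 was higher without overlap, with 0 reads in the second PDGFR control library, and FOSL1 overlapped.

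Nuclear-encoded genes of oxidative phosphorylation, the subunits of the respiratory chain and ATP synthase, had 9 higher and 0 lower without overlap of 54 tested, a share near the 15.9% of genes with a mean of at least 4 that were higher. Their median difference was 0.30, but it was 0.20 after the GC trend was removed and 0.14 without the second PDGFR control library, in which the list's median level was 4.05, against 4.52 and 4.27 in the other PDGFR controls and 4.69, 4.17 and 4.78 in the CD28 controls. COX7B, a small subunit of cytochrome c oxidase, had the largest difference of the list, 0.95 ± 0.44, and its groups overlapped. Of 77 cytosolic ribosomal protein genes tested, 3 were higher and 1 was lower without overlap, below the 16.4% higher among all genes with a mean of at least 5. Their median of 0.29 was 0.11 without that library and 0.13 after quantile normalization.

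For the counts of cell cycle genes without overlap, the share of genes with a mean of at least 4 that were higher in the controls was 15.9%. Most cell cycle genes had a control difference above 0, 26 of 30 for G2 and M phase and 23 of 25 for S phase. Of the 1818 genes with a mean of 4 to 5, 1268 had a control difference above 0. Of 30 genes of G2 and M phase 3 were higher and 0 lower without overlap in the controls, with a median of 0.23, while in the labeled libraries 25 were higher, against 710 of the 1818 genes with a mean of 4 to 5, and the median was 0.57. TPX2, a spindle assembly factor, was 6.11, 6.15 and 6.31 in the CD28 controls and 5.74, 5.65 and 5.69 in the PDGFR controls. Of 25 genes of S phase 4 were higher and 0 lower without overlap, with a median of 0.22. MCM6, a subunit of the replicative helicase, was 5.84, 5.72 and 6.0 in the CD28 controls and 5.44, 5.40 and 5.47 in the PDGFR controls. The G2 and M median in the controls was 0.14 both after the GC trend was removed and after quantile normalization, which gave 0.13 for S phase; the change of the list with labeling was not tested.

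Extracellular matrix genes had 2 higher and 5 lower without overlap of 39 tested, against 8.42% and 5.72% of all genes tested. The median of the list was -0.06 in the controls and -0.15 in the labeled libraries. The control median was -0.13 without the second PDGFR control library, -0.09 after the GC trend was removed and -0.10 after quantile normalization. Among the 4 members with the largest differences, LAMA5, HSPG2 and AGRN encode basement membrane proteins. LAMA5, a laminin chain, was 3.97, 3.62 and 3.22 in the CD28 controls and 4.33, 4.13 and 4.27 in the PDGFR controls, and HSPG2, which encodes perlecan, was 3.02, 2.56 and 2.48 in the CD28 controls and 3.46, 3.06 and 3.49 in the PDGFR controls. AGRN, which encodes agrin, was 4.52, 4.37 and 3.67 in the CD28 controls and 4.85, 4.58 and 4.93 in the PDGFR controls. All 3 were also lower without overlap in the labeled libraries, with differences of -0.85, -0.85 and -0.77. Their transcripts have GC contents of 65.3%, 63.5% and 66.4%.

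Signalling genes around CD28 and the PDGF receptors are adaptors, kinases and transcription factors that act downstream of them. Of 40 tested, 5 were higher and 0 lower without overlap, against 8.42% and 5.72% of all genes tested. The median of these 40 was 0.12, against 0.06 over all genes, and it was 0.06 after the GC trend was removed. STAT3 was 3.38, 3.31 and 3.22 in the CD28 controls and 2.95, 2.67 and 3.05 in the PDGFR controls, a difference of 0.41 ± 0.18 (limma adjusted p = 0.595), and 0.43 in the labeled libraries. Developmental transcription factors had 9 higher and 2 lower of 52 tested. Among them SOX2, a factor of stem and neural progenitor cells, was 2.15, 1.90 and 1.67 in the CD28 controls and 1.33, 1.25 and 1.44 in the PDGFR controls.

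**Figure D4:**
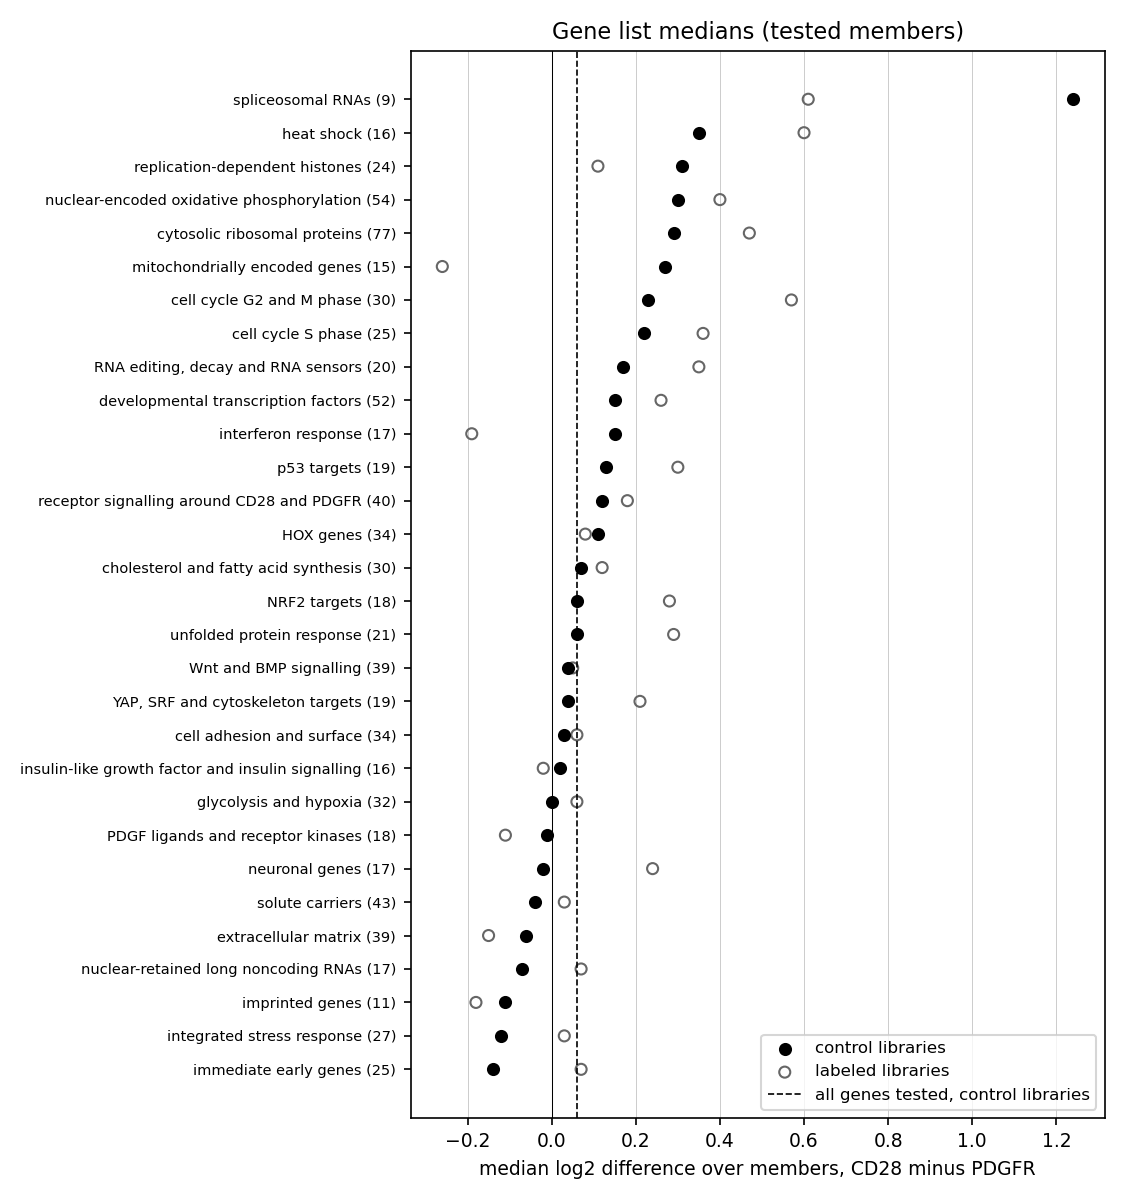
Median log2 difference of CD28 minus PDGFR (horizontal) over the tested members of each gene list with at least 9 of them, in control libraries (filled) and labeled libraries (open); the number tested stands beside each name and the dashed line marks all genes in the controls. Spliceosomal RNAs lie at 1.24 on 9 genes, heat shock genes at 0.35 and immediate early genes at -0.14.

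The spliceosomal RNA list had the highest median, 1.24, but it rests on 9 genes with few reads, of which 1 was higher without overlap. RNU4-2, a U4 gene, was 3.48, 2.96 and 3.56 in the CD28 controls and 2.37, -1.45 and -1.45 in the PDGFR controls, from 21, 13 and 20 reads against 12, 0 and 0. In the labeled libraries it had 76 to 137 reads in the CD28 line and 87 to 111 in the PDGFR line, which overlap. Near-identical copies of such genes may have shared reads. NEAT1, a nuclear RNA that scaffolds paraspeckles, was 6.48, 6.77 and 6.41 in the CD28 controls and 7.37, 7.62 and 7.17 in the PDGFR controls, a difference of -0.83 ± 0.37, and it was -2.0 in the labeled libraries, without overlap in either.

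A gradient with base composition ran through the line difference. Across 12176 protein-coding genes, Spearman's rho between the difference and the GC content of the transcript was -0.308 in the controls and -0.58 in the labeled libraries, and rho with transcript length was -0.041 in the controls. In 5 equal bins of GC content, low to high, the median control difference was 0.09, 0.15, 0.15, 0.02 and -0.17, and the median labeled difference was 0.40, 0.33, 0.16, -0.03 and -0.25. In the highest bin, 28 of 2434 genes were higher and 290 lower without overlap in the CD28 controls. In bin 2, 519 of 2436 were higher and 50 lower. Over all 12176 protein-coding genes 1296 were higher and 596 lower. Without the second PDGFR control library the 5 medians were 0.20, 0.19, 0.10, -0.09 and -0.31.

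The gradient also varied between libraries of 1 line. The median level of the highest GC bin minus that of bin 2 was 0.24, -0.28 and -0.48 log2 units in the CD28 controls and 0.39, -0.16 and 0.27 in the PDGFR controls. The lines overlapped in the controls, through the first CD28 library and the second PDGFR library. In the labeled libraries the values were -0.41, -0.72 and 0.09 in the CD28 line and 0.36, 0.20 and 0.18 in the PDGFR line, which did not overlap. The part of base composition in single gene differences was not tested beyond the values after its removal.

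**Figure D5:**
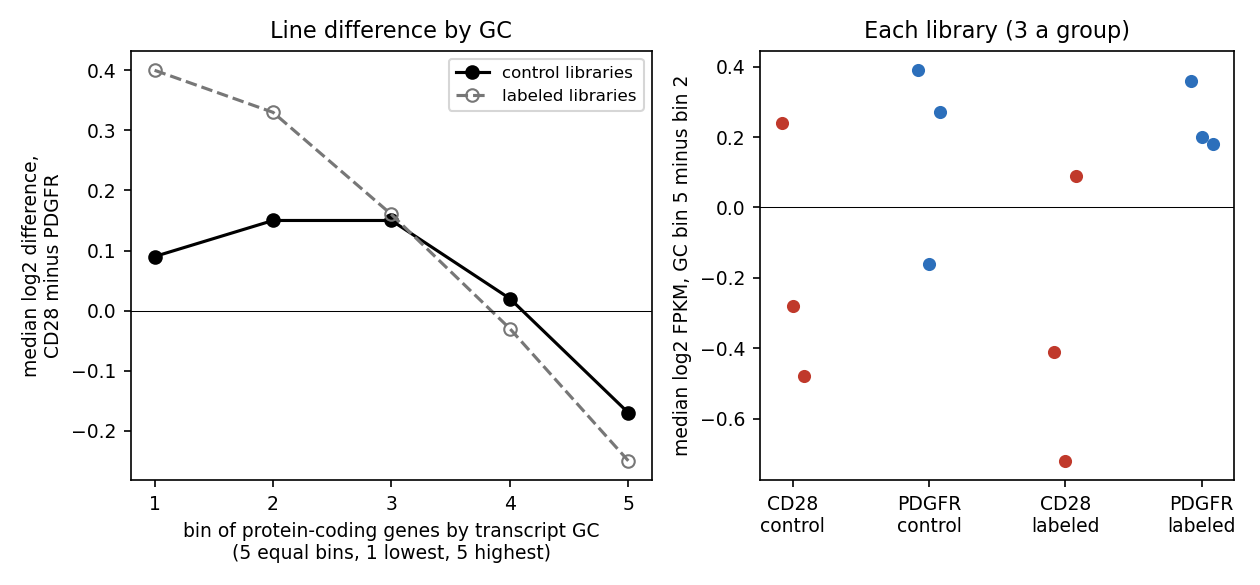
Left, median log2 difference of CD28 minus PDGFR (vertical) by bin of protein-coding genes in GC content, in control (filled) and labeled (open) libraries; right, for each library, the median log2 FPKM of GC bin 5 minus bin 2. The difference is -0.17 in the highest bin of the controls, and the control libraries of the 2 lines overlap at the right.

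Median control differences of the 22 autosomes and X ran from -0.05 on chromosome 19 to 0.12 on chromosomes 5, 6 and 10. Chromosomes 16, 19 and 22, which are rich in GC, held the values below 0, at -0.01, -0.05 and -0.04. Without the second PDGFR control library these were -0.11, -0.18 and -0.15, and after the GC trend was removed they were 0.01, 0.05 and 0.00. In 280 windows of 10 Mb with at least 20 tested genes the medians ran from -0.33 to 0.32. The lowest window was on chromosome 22 from 50 Mb, with 29 genes, a median GC content of 63.2% and a median of -0.11 after the GC trend was removed. The highest was on chromosome 1 from 190 to 200 Mb, with 20 genes, a median GC content of 39.1% and 0.27 after removal. No window median reached 1 log2 unit in either direction.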

How the data were processed

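The authors deposited 1 table of log2 FPKM values for 25745 genes in 26 libraries. The submitters' processing notes name HISAT2 2.1.0, the build hg38, and edgeR with no version. Identifiers were matched to GENCODE 29, 24075 with their version, 1579 without it and 91 not at all. Values shared by libraries at the bottom of a gene's range gave the prior count, about 1 read scaled to depth. Undoing it gave reads for 25739 genes, and 100% of values under 1000 reads, for genes matched with their version, came out whole to within 0.05 read. Depth and the spread of 3 libraries a group set the precision. Floors from reads cover counting error only.

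Sample titles gave the groups. Line differences of the log2 values were tested, two-sided, with limma 3.58.1 (R 4.3.3) in 1 fit to the 12 libraries of both lines, with 4 group means, an intensity trend and 8 residual degrees of freedom, 10.52 after moderation. Benjamini-Hochberg adjustment ran over all 20086 genes and calls were made at an adjusted p under 0.05. No pseudocount was added beyond the one in the values, which shrinks the differences of genes with few reads. Each ± in the text is a standard error from this fit. The fit was tested on simulated data.

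The members and lists were chosen with earlier results of these data known. Named genes are the 5 protein-coding genes with the smallest p in each direction, because fewer than 5 were called, and up to 4 members of each list by size of difference. Only some of the latter are printed. Mitochondrial tRNAs and RF00003 fall outside the rule. Lists carry no test. Replicate pairs differed by chi-square values of 9.71 to 30.8 per gene over genes with at least 20 reads, so none was treated as a duplicate. Alternatives covered the libraries in the fit, weights, filters, scaling, pseudocount, spread model, replicate numbers as a block, voom on the recovered reads, each library left out, and removal of the GC trend, which was added after the data were seen.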

Additional observations from a re-analysis of the deposited data

How the results depend on the processing

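The control comparison called 1 gene, CD28. It called 3 with the 6 control libraries alone, 40 with all 26 libraries, 7 with array weights and 2 after the GC trend was removed. It called 0 with a mean log2 FPKM of at least 1, a filter that removes CD28, and 0 with limma voom on recovered reads. Leaving out 1 library gave 1 to 15 genes. The 15 came without the first PDGFR control library, and 2 were called without the second one, without the third one or without the third CD28 control library. The labeled comparison called 1 gene, and 1011 with all 26 libraries, 2280 with array weights, 682 with voom, 0 with the mean filter, and 2 each with weights per group, quantile normalization, a pseudocount of 1 FPKM, the replicate block and the GC trend removed. Leaving out 1 library gave 1 to 4 there. The labeled genes at an unadjusted limma p under 0.05 numbered 4032 in the main fit. They numbered 2268 without the second labeled CD28 library and 4873 without the third, the extremes of the libraries left out. The change of the line difference with labeling called 0 genes, 6 with all 26 libraries, 2 with array weights and 0 to 2 with 1 library left out. The cause of these moves was not tested. The fit to 26 libraries takes its spread partly from the Lyn11 and Lck libraries.

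The pairing by replicate number was checked in the control libraries. Same-numbered deviations correlated at 0.126, 0.104 and 0.015, and different-numbered ones at -0.127 to 0.04. The main fit did not take the numbers as pairs, and with the replicate block the control comparison still called 1 gene. CD28 was called in 18 of 19 alternatives and not with voom. Of the other genes named, MT-TN was called in 3 of 20 alternatives, with array weights, without the first PDGFR control library and after the GC trend was removed, and its adjusted p ran from 0.016 to 0.668. RF00003 was called in 3 alternatives, with all 26 libraries, with array weights and without the third CD28 control library, at adjusted p of 0.0033, 0.0369 and 0.0455. RNU4-2 was called in 2 of 20, and CXCL17, RGS2, SLC25A43 and MT-TS2 in 1 or 2. The 10 protein-coding genes of smallest p, MT-TN, MT-TS2 and MT-TG kept their direction in all 20. NEFM, which was not called, ran from -0.34 to 0.01. At these depths genes with a mean log2 FPKM under 0 had a median SE of 1.16 log2 units.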
